A study of Arabidopsis thaliana with 3 samples.

Results

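Jasmonate is a fatty acid hormone of wounding, defence and stamen growth, and 10 Arabidopsis thaliana genes that make it, sense it or respond to it were followed here in the dissected inflorescence meristem. They were taken by locus name from 32678 loci and were listed with earlier results of these libraries known, among them the high and uneven level of VSP1. Their levels are therefore given as a description with no test, and their calls in a test of spread run over all genes are printed below with nothing read from them. The genes are LOX2, AOS, AOC1 and OPR3 of hormone synthesis, the receptor gene COI1, the repressor genes JAZ1 and JAZ10, the activator gene MYC2, and the response genes VSP1 and VSP2.

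The series has 1 group of 3 RNA libraries, each from a pool of 10 inflorescences of untreated wild-type Col-0 plants. The plants had 4 weeks of short days with 8 h of light and then 2 weeks of long days with 16 h of light. Older buds were dissected away up to stage P5, and the tissue was frozen within 3 min. No group carries a mutation, a transgene or a treatment, so no comparison between conditions exists. Whether the pools came from separate sowings or dissections is not stated, and any spread between them may be technical. Each value averages the cells of 10 inflorescences, so that fewer cells of a type and less RNA per cell cannot be told apart.

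As background, jasmonate synthesis starts in the chloroplast, where a lipoxygenase oxidises linolenic acid and the products pass through allene oxide synthase and allene oxide cyclase to OPDA. OPDA is reduced in the peroxisome, shortened by beta-oxidation and joined to isoleucine by JAR1 to give the active hormone. The hormone joins the F-box protein COI1 to JAZ proteins, which are then degraded and release MYC factors. MYC factors in turn switch on the JAZ genes, several synthesis genes and the VSP genes. In flowers the hormone is known for its role in stamen filament growth and anther opening.

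The promoters of 5 genes are shown: VSP1, VSP2, LOX2 and MYC2 because their levels are the highest of the 10 and differ between the pools, and AOS because it holds a G-box, a sequence that MYC factors are known to bind. Each window runs from 250 bases before to 50 bases after the gene start in the RefSeq annotation of TAIR10.1, 300 bases in all, read 5′ to 3′ on the strand of the gene. The windows lie at chr5:8509152-8509451 (minus strand), chr5:8502175-8502474 (minus strand), chr3:16524995-16525294 (plus strand), chr1:11801358-11801657 (minus strand) and chr5:17099546-17099845 (minus strand). Capitals mark the G-box CACGTG or the T/G-box AACGTG, looked for on both strands (CACGTT is the T/G-box read from the other strand).
VSP1: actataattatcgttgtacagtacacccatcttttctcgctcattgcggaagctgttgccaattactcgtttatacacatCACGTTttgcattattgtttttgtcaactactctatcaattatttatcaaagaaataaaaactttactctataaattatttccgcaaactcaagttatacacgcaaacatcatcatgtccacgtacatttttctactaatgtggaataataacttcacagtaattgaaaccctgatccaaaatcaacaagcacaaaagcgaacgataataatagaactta
VSP2: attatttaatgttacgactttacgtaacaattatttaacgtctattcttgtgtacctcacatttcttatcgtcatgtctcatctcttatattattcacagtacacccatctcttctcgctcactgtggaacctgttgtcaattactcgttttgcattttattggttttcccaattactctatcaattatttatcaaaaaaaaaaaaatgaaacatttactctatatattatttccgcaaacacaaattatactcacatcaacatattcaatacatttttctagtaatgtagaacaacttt
LOX2: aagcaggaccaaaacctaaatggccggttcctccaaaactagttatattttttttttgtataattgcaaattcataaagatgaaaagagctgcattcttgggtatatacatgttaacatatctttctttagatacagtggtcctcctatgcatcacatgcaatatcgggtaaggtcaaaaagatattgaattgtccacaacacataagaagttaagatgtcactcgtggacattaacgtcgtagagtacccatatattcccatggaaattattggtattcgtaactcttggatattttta
MYC2: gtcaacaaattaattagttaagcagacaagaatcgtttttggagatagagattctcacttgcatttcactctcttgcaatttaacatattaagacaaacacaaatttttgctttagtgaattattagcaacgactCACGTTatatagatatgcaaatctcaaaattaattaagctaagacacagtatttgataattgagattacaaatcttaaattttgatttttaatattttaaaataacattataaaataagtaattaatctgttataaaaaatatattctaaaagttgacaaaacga
AOS: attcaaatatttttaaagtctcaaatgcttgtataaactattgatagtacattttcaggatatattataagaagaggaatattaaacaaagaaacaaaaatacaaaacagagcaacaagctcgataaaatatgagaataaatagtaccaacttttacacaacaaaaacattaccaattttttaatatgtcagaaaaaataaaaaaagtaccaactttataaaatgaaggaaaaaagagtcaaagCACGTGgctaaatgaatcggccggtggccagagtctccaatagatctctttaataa

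The G-box was found in the window of 1 member, AOS, where its first base lies 6 bases before the gene start. The T/G-box was found in 3 members, at 170 bases before the start in VSP1, 115 in MYC2 and 138 in AOC1, each on the opposite strand. VSP2, LOX2, OPR3, COI1, JAZ1 and JAZ10 held neither, and the GCC-box GCCGCC was in 0 of the 10. Over 26711 nuclear protein-coding promoters of the same length, 7.79% held CACGTG, 9.02% held AACGTG and 2.55% held GCCGCC. Among the 64 other pathway genes described below, 8 held CACGTG (for example JAZ2, JAZ3, JAZ7 and JAZ8), 15 held AACGTG (for example LOX3, LOX4, JAZ5, JAZ6, ORA47 and THI2.1) and 4 held GCCGCC, among them ORA59 and PDF1.2. A match describes these letters only, and no match says only that they are not in this window.

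Total counts over all loci were 29094404, 28948463 and 27254114 in pools 1, 2 and 3. Levels are nuclear counts scaled to a common library size (CPM, defined so that 1 CPM was 29.1, 28.9 and 27.2 counts in pools 1, 2 and 3), and 3 counts correspond to 0.103, 0.104 and 0.110 CPM. Orders of level and ratios between genes use levels per length of merged exons (TPM-like). CPM printed side by side for several genes are not corrected for length. Meristem and flower markers were present in all pools, with 5 of 6 expressed (CLV3 was under 1 CPM in pools 1 and 2) and a summed level of 515, 622 and 605 CPM. Pools differed in other lists, which were written with earlier results of these libraries known, so their orders are a description. Of 9 tapetum genes 5 were highest in pool 1, and the sum of the list was 147 CPM there, against 23.4 and 25.4 CPM in pools 2 and 3. LAP6, which was close to even at 24, 22 and 25 CPM, made up most of the sum in pools 2 and 3. MS2 had 0, 0 and 1 counts, and CYP703A2 and MS1 were at 0 in all 3. Of 10 early-response genes of touch, wounding and stress, all were highest in pool 1 and lowest in pool 3, with sums of 1556, 726 and 262 CPM. Of 8 vascular genes 6 were highest in pool 2 and 2 in pool 1, while 7 were lowest in pool 3 and 1 in pool 1. Their sums were 125, 158 and 113 CPM. The part of these differences in the results below was not tested.

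**Figure D1:**
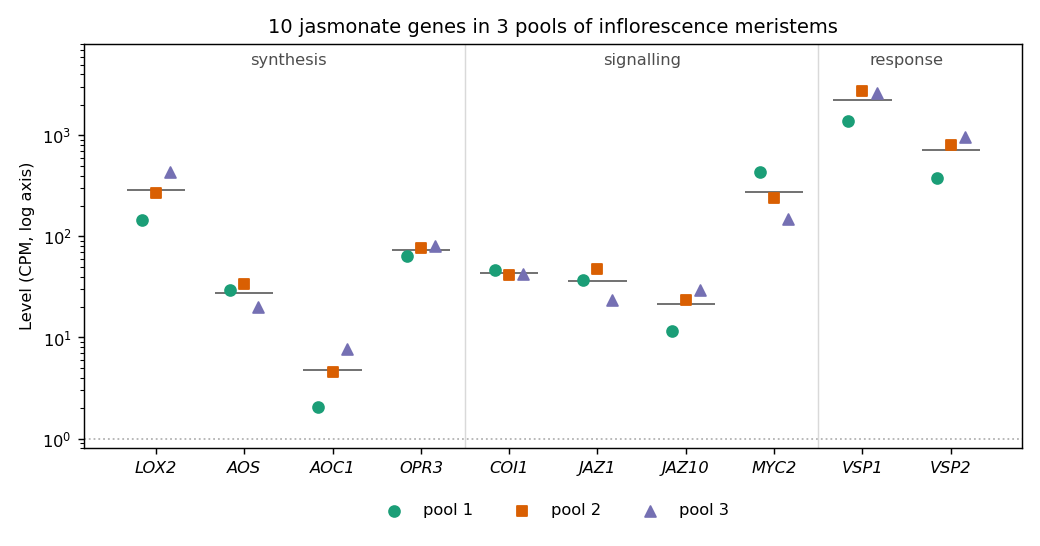
Level of the 10 jasmonate genes in each pool (CPM, log axis), grouped by role, with a bar at the mean of the 3 pools and a dotted line at 1 CPM. VSP1 lies at 1393 to 2756 CPM and AOC1 at 2.06 to 7.64 CPM, and MYC2 is high in pool 1 where LOX2, AOC1, JAZ10, VSP1 and VSP2 are low.

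All 10 genes were expressed, defined as 1 CPM or more in each pool, which 63.2% of nuclear protein-coding genes reached. Per exon length the order began with VSP1 at 2773 ± 937 TPM-like, VSP2 at 774 ± 331, LOX2 at 144 ± 75.4 and MYC2 at 136 ± 71.0 TPM-like (SD, n = 3 each). In the middle stood OPR3 at 71.3 ± 8.96, JAZ1 at 32.8 ± 11.0 and COI1 at 28.4 ± 1.57 TPM-like (SD, n = 3 each). At the low end were AOS at 22.4 ± 5.42, JAZ10 at 16.0 ± 6.93 and AOC1 at 6.56 ± 3.90 TPM-like (SD, n = 3 each). The merged exons of JAZ10 hold 2215 bases, against 1202 in 1 of its transcripts. The place of JAZ10 here and among the JAZ genes may therefore depend on the length used. Lengths also differed for OPR3 (1706 against 1264 bases), JAZ1 (1804 against 1558) and VSP1 (1338 against 1094). Places and ratios per length of these genes carry the same limit. Neighbours in this order whose ranges over the pools did not overlap were VSP1 and VSP2, VSP2 and LOX2, OPR3 and JAZ1, and, by a narrow margin (27.1 TPM-like for both bounds), COI1 and AOS. LOX2 and MYC2, MYC2 and OPR3, JAZ1 and COI1, and AOS and JAZ10 changed places in 1 of 3 pools. JAZ10 and AOC1 overlapped in range, with JAZ10 above AOC1 in each of the 3 pools. The median of the 10 was 52.1 TPM-like, beside 9.64 TPM-like over all nuclear protein-coding genes.

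LOX2 (AT3G45140, chromosome 3, 16525245 to 16529352) encodes a chloroplast 13-lipoxygenase at the entry of the pathway. It had 145, 271 and 438 CPM in pools 1, 2 and 3. Its level was low in pool 1 and high in pool 3, with a highest to lowest ratio of 3.02. The other 13-lipoxygenase genes differed from it in order or in size of spread. LOX3 had 96.3, 48.4 and 34.3 CPM and LOX4 had 38.6, 22.3 and 14.1 CPM, high in pool 1 and low in pool 3, while LOX6 had 70.8, 75.5 and 85.1 CPM, lowest and highest in the same pools as LOX2 but over a smaller range. Set against the sum of these 3 genes, LOX2 per length was lower in pool 1 (log2 ratio -0.55) and higher in pools 2 and 3 (0.87 and 1.71). The mean ratio of 0.68 ± 1.14 (SD, n = 3) lies near pool 2 and hides the opposite signs of pools 1 and 3.

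AOS (AT5G42650, chromosome 5, 17097564 to 17099595), the single gene of allene oxide synthase, had 29.7, 33.5 and 20.2 CPM in pools 1, 2 and 3. It was lowest in pool 3 and differed by 1.66 times between highest and lowest. AOC1 (AT3G25760, chromosome 3, 9403779 to 9405338) encodes 1 of 4 allene oxide cyclases, which fix the ring of OPDA. AOC1 had 60, 131 and 208 counts, or 2.06, 4.53 and 7.64 CPM, with a highest to lowest ratio of 3.70, the widest of the 10. Its neighbour AOC2, 1330 bases away and 89.9% identical over the coding sequence, had 3.16, 6.50 and 8.63 CPM, also low in pool 1. AOC3, the next gene in the row, had 45.4, 44.9 and 17.0 CPM and was low in pool 3. AOC4, on chromosome 1, had 74.0, 99.3 and 96.6 CPM, and per length it had the highest mean level of the cyclase genes (110 ± 17.7 TPM-like, SD, n = 3). Per length, AOC1 stood below AOC4 by a log2 ratio of -4.25 ± 0.75 and below AOC2 by -0.31 ± 0.23 (SD, n = 3 each), in 3 of 3 pools for both.

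OPR3 (AT2G06050, chromosome 2, 2359114 to 2362375) encodes the peroxisomal reductase that acts on the jasmonate precursor. OPR3 had 64.2, 77.2 and 80.8 CPM in the pools and was close to even, with a ratio of 1.26. It exceeded OPR1 and OPR2 together, whose enzymes are cytosolic, by a log2 ratio of 2.38 ± 0.28 per length (SD, n = 3). OPR1 and OPR2 overlap each other on 1 strand, and reads there may not be split cleanly.

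COI1 (AT2G39940, chromosome 2, 16672493 to 16675864), the receptor, had 46.5, 41.5 and 42.3 CPM. It was the most even of the 10, with a ratio of 1.12. Its partners in the ubiquitin ligase were even as well, with ASK1 at 267 ± 1.32 CPM and CUL1 at 301 ± 15.3 CPM (SD, n = 3 each). COI1, JAZ10 and MYC2 each overlap a gene on the opposite strand, and the strand setting of the counting is not known here.

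JAZ1 (AT1G19180, chromosome 1, 6621777 to 6623668) and JAZ10 (AT5G13220, chromosome 5, 4218786 to 4221077) encode repressors that bind MYC factors and recruit NINJA and TPL. JAZ1 had 37.3, 47.6 and 23.4 CPM in pools 1, 2 and 3, lowest in pool 3. JAZ10 had 11.6, 23.5 and 29.6 CPM, lowest in pool 1. The pair therefore did not share an order over the pools, and per length JAZ10 was above JAZ1 in pool 3 alone (22.1 and 21.4 TPM-like). Among the 12 JAZ genes that the reference names, JAZ1 was the fifth and JAZ10 the eighth by TPM-like level. JAZ9 at 229 ± 73.9 and JAZ12 at 199 ± 14.6 TPM-like (SD, n = 3 each) stood above both, with JAZ12 exceeding JAZ1 in 3 of 3 pools (log2 ratio of JAZ1 to JAZ12 -2.66 ± 0.60, SD, n = 3). JAZ4 had 1, 1 and 0 counts. The adaptor gene NINJA was at 104 ± 8.97 CPM and the corepressor gene TPL at 314 ± 22.7 CPM (SD, n = 3 each).

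MYC2 (AT1G32640, chromosome 1, 11798119 to 11801407) encodes the main bHLH activator of the wound branch. It had 432, 239 and 148 CPM in pools 1, 2 and 3. This is a ratio of 2.92 with the highest value in pool 1, the reverse of LOX2 and JAZ10. Its relatives MYC3 (104, 99.7 and 125 CPM) and MYC4 (14.2, 14.1 and 10.5 CPM) varied less. The log2 ratio of MYC2 to MYC3 per length was 1.70, 0.91 and -0.11 in the pools, so MYC2 was the higher of the pair in pools 1 and 2 and slightly the lower in pool 3. MYC2 exceeded MYC4 in 3 of 3 pools (3.80 ± 0.57, SD, n = 3). The bHLH repressors JAM1, JAM2 and JAM3 and the Mediator subunit gene MED25 stood at 28.6 to 51.1 CPM on average.

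**Figure D2:**
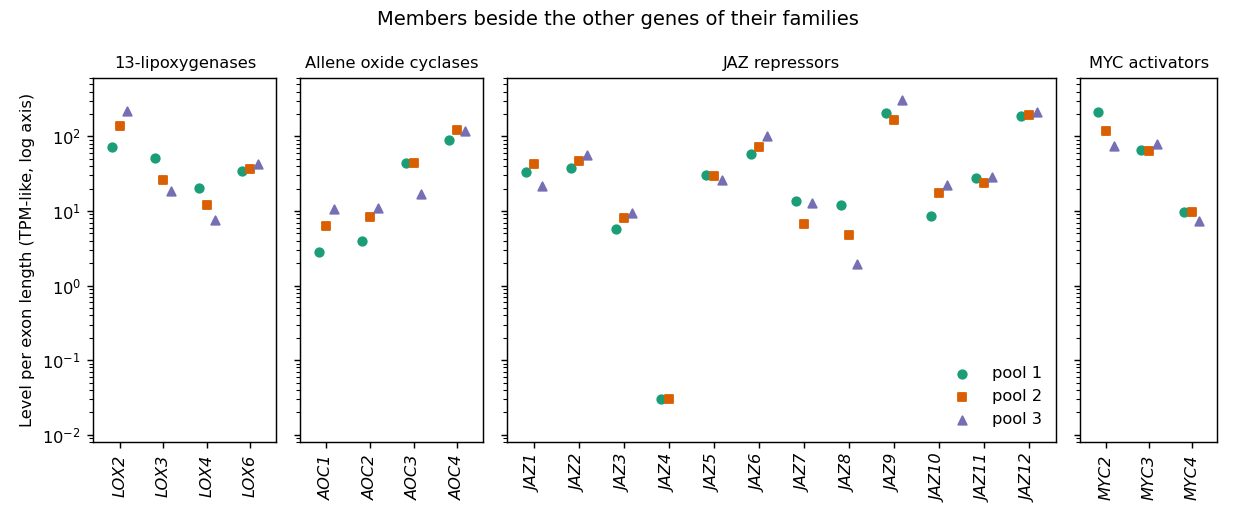
Level per exon length (TPM-like, log axis) of the members beside the other genes of their families in each pool; a value of 0 (JAZ4 in pool 3) is not drawn. LOX2 and LOX3 have opposite orders over the pools, AOC4, JAZ9 and JAZ12 lead their families or are near the top, and MYC2 varies where MYC3 and MYC4 vary less.

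VSP1 (AT5G24780, chromosome 5, 8507590 to 8509201) and VSP2 (AT5G24770, chromosome 5, 8500468 to 8502224) encode vegetative storage proteins of the acid phosphatase family, long used as markers of the jasmonate response, and VSP2 is known to act against insects. VSP1 had 40499, 79742 and 71420 counts, or 1393, 2756 and 2622 CPM, in pools 1, 2 and 3. VSP2 had 380, 794 and 965 CPM. Both were low in pool 1, by 1.98 times for VSP1 and 2.54 times for VSP2 against the highest pool. By mean TPM-like level VSP1 was in place 7 and VSP2 in place 135 of 26712 nuclear protein-coding genes, and together they took 0.177%, 0.355% and 0.359% of nuclear counts. The log2 ratio of VSP2 to VSP1 per length was -2.05, -1.98 and -1.62, with VSP1 the higher in 3 of 3 pools.

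Near copies could exchange reads in the counting. The VSP genes lie 5365 bases apart and share 88.1% of their coding bases. No stretch of 100 bases, the length of 1 read, in the transcript of any of the 10 members was found unchanged in a transcript of another gene (0 of 995 stretches in VSP1, 0 of 1409 in VSP2 and 0 of 1092 in AOC1). Reads with a mismatch were not modelled. For each member 1 transcript was checked, in its own direction only. Exons of other transcripts and overlaps with genes on the opposite strand were therefore not covered.

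Spread among the pools was read from edgeR as the biological coefficient of variation (BCV), set against the trend for genes of the same level. edgeR draws the BCV of each gene toward that trend, so it is not the raw spread of the 3 values. The goodness of fit below uses the trend and not the BCV of the gene. The BCV was 0.354 for LOX2 (trend 0.147), 0.338 for MYC2 (trend 0.147), 0.312 for VSP2 (trend 0.152) and 0.311 for JAZ10 (trend 0.149). It was 0.254 for VSP1 (trend 0.155), 0.433 for AOC1 (trend 0.255), 0.226 for JAZ1 (trend 0.129) and 0.179 for AOS (trend 0.136). OPR3 at 0.125 lay at its trend of 0.124 and COI1 at 0.105 below its trend of 0.125. By edgeR's goodness of fit, with an adjusted p under 0.05 over 18334 genes, 4 of the 10 varied more than the trend, namely LOX2, JAZ10, MYC2 and VSP2, beside 2.52% of all genes. Since the members were listed with their spread in these pools in part known, nothing is read from this count. Without pool 1 the count was 1 (JAZ1, beside 1.28% of all genes). Without pool 2 it was 4 (beside 1.57% of all genes), and without pool 3 edgeR called 0 (beside 1.16% of all genes). At an unadjusted p under 0.05 (edgeR goodness of fit) were 7 of the 10 with all pools, beside 1107 of 18334 genes. Without pools 1, 2 and 3 these were 4, 7 and 5, where the number over all genes was not taken. Nothing is read from these counts either.

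**Figure D3:**
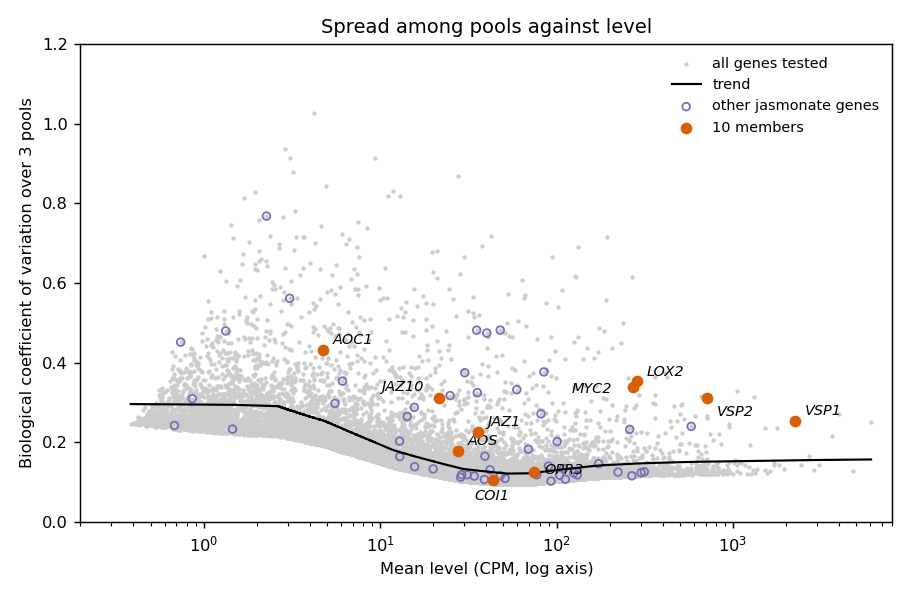
Biological coefficient of variation over the 3 pools against mean level (CPM, log axis) for the 18334 genes tested (grey), the edgeR trend (line), other jasmonate genes (open circles) and the 10 members (filled). The value of each gene is drawn toward the trend by edgeR, and 1 gene lies above the axis. LOX2, MYC2, VSP2 and VSP1 lie above the trend at high level, and COI1 and OPR3 lie at or below it.

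The rest of the pathway was taken from a list of 80 loci, of which the reference gives 74 the listed name, leaving 64 besides the members. Of these 64 genes, 44 were expressed, or 68.8%, beside 63.2% of all nuclear protein-coding genes. By role, 16 of 19 synthesis genes, 18 of 20 signalling genes, 2 of 6 turnover genes and 8 of 19 response genes were expressed. Their medians were 28.5, 37.2, 0.687 and 1.25 TPM-like, beside 9.64 TPM-like over all genes. In synthesis, the beta-oxidation gene PKT3 (171 ± 11.8 TPM-like) and the desaturase gene FAD3 (163 ± 28.9 TPM-like) had the highest levels per length, before AOC4, another desaturase gene, FAD7 (88.1 ± 2.55 TPM-like), and ACX1, also of beta-oxidation (78.9 ± 7.22 TPM-like, SD, n = 3 each). JAR1, which makes the active conjugate, was at 34.1 ± 2.60 CPM. DAD1, a lipase gene of stamen filaments, had 2, 0 and 0 counts, DGL had 0 in all pools, and the methyltransferase gene JMT was at 0.742 ± 0.552 CPM.

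The 6 turnover genes kept were low apart from a pair of amidohydrolase genes that split the conjugate. These were IAR3 at 41.9 ± 5.34 CPM and ILL6 at 29.9 ± 17.7 CPM (SD, n = 3 each). Not counted were the hydroxylase genes JOX1 to JOX4, to which the reference does not give these names. JOX2 had 1.44, 3.39 and 8.70 CPM in pools 1, 2 and 3, and JOX1, JOX3 and JOX4 were not expressed. The oxidase genes CYP94B1, CYP94B3 and CYP94C1 were at 0.171, 1.33 and 0.290 CPM on average. Response genes ranged from high to not detected. In the wound branch JR1, a lectin gene, was at 579 ± 181 CPM and CLH1, a chlorophyllase gene, at 81.2 ± 33.5 CPM. Among genes of defence peptides, THI2.1, a thionin gene, was at 84.5 ± 43.4 CPM, while PDF1.2, the usual marker of the branch that acts with ethylene, had 0 counts in every pool and PDF1.2b had 2, 0 and 0. The regulator genes of that branch, ORA59 and ERF1 were at 0.292 ± 0.136 and 0.682 ± 0.0935 CPM. PDF1.2 and PDF1.2b were not among the genes checked for shared stretches, and the rule for multiply mapped reads is not given. The stamen factor genes MYB21, MYB24 and MYB57 had 0 counts in all 3 pools, which allows up to 0.110 CPM in pool 3, and MYB108 was at 0.281 ± 0.0879 CPM.

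Of the 64 other genes, 50 had enough counts for the test of spread, and 11 varied more than the trend (22%, edgeR goodness of fit, adjusted p under 0.05), beside 2.52% of all genes tested. This list too was written with earlier results of these libraries known. Its share and the calls below are therefore a description, and nothing is read from them. Of these, 5 were highest in pool 1 (1.69% of all genes tested were called with this order) and 6 were highest in pool 3 (0.431% of all genes tested). The first set was LOX3 (edgeR, adjusted p = 2.3e-06), LOX4 (edgeR, adjusted p = 0.000951), AOC3 (edgeR, adjusted p = 4.8e-05), JAZ8 (edgeR, adjusted p = 0.0112) and ORA47 (edgeR, adjusted p = 1.8e-13). All 5 were lowest in pool 3 (1.4% of all genes tested were called with this low pool). ORA47, an ERF factor gene that acts on jasmonate synthesis genes, had 73.4, 33.2 and 14.5 CPM, and JAZ8 had 5.98, 2.32 and 0.955 CPM. In this set AOC3 was almost equal in pools 1 and 2. The early-response genes TCH4, ZAT10, ZAT12, WRKY33, WRKY40, ERF5, ERF6, SZF1, CML37 and CBF2 had the same order over the pools, and their part was not tested. They too were listed with earlier results of these libraries known.

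The second set was ARGAH2 (edgeR, adjusted p = 6.9e-15), CORI3 (edgeR, adjusted p = 2.8e-13), THI2.1 (edgeR, adjusted p = 4.7e-08), ILL6 (edgeR, adjusted p = 9.0e-07), ANAC055 (edgeR, adjusted p = 2.0e-05) and CLH1 (edgeR, adjusted p = 0.00155). ARGAH2, an arginase gene, had 15.4, 47.7 and 79.9 CPM in pools 1, 2 and 3, and CORI3, a cystine lyase gene, had 13.9, 26.0 and 64.9 CPM. THI2.1 had 36.1, 97.5 and 120 CPM and ILL6 had 16.0, 24.0 and 49.8 CPM. Apart from ANAC055, a NAC factor gene that was lowest in pool 2 (0.997, 0.415 and 5.29 CPM), the genes of this set were lowest in pool 1, which 0.327% of all genes tested were with a call. JR1 (370, 694 and 672 CPM) and TAT3 (8.80, 18.5 and 19.5 CPM) had the same low pool and did not pass (edgeR, adjusted p = 0.182 and 0.0831). By role, 6 of 11 tested response genes, 3 of 17 synthesis genes, 1 of 3 turnover genes and 1 of 19 signalling genes passed. Without pool 1 the 11 became 5 (AOC3, ILL6, ANAC055, ORA47 and CORI3, beside 1.28% of all genes). Without pool 3 they became 4 (LOX3, ORA47, ARGAH2 and THI2.1, beside 1.16% of all genes), and without pool 2 all 11 stayed (beside 1.57% of all genes).

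**Figure D4:**
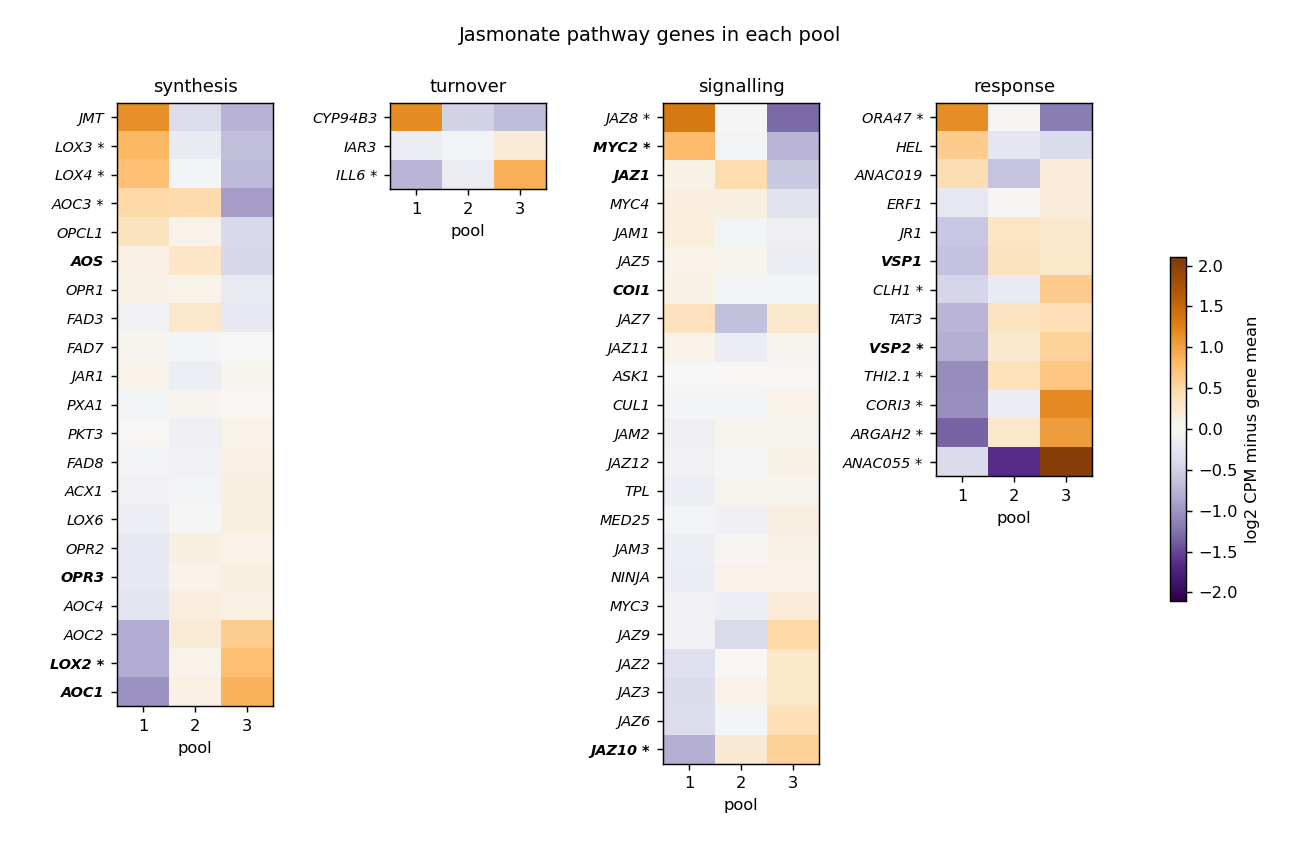
Level of the 60 tested jasmonate genes in each pool as log2 CPM minus the mean of the gene over the 3 pools, by role, ordered by the difference between pools 1 and 3; members are in bold and an asterisk marks an adjusted p under 0.05 (edgeR goodness of fit). MYC2, LOX3, LOX4, JAZ8 and ORA47 are high in pool 1 and low in pool 3, and LOX2, AOC1, JAZ10, VSP2, ARGAH2, CORI3 and THI2.1 are low in pool 1 and high in pool 3.

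Likeness over the pools was measured as the distance between log2 CPM values centred on each gene's mean, over 3 libraries and 13439 protein-coding genes of at least 10 CPM on average. For VSP1, the member with the highest level, the closest genes were 4CL3, JR1, GT72B1, WRKY14 and AT1G06000, at distances of 0.0495 to 0.109. For LOX2, the member of at least 10 CPM with the widest ratio, they were AT1G54010, MEB1, JAZ10, PGIP2 and ILL6, at distances of 0.0902 to 0.281. Of these, JAZ10 is a member and ILL6 and JR1 are on the pathway list. A pattern over 3 libraries has few ways to differ, and such a distance is a description only.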

How the data were processed

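The authors deposited raw counts per gene for 32678 Arabidopsis loci in 3 libraries, unnormalised, with 0 lines lacking a gene name. Per the submitters' processing notes, FastQC, Bowtie2 2.2.5, TopHat2 2.1.0, HTSeq 0.6.1 and TAIR10 were used. Not given in the sources used here: the role of each, the strand setting and the rule for multiply mapped reads, any of which could move genes with near copies or overlaps.

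Loci were matched to RefSeq TAIR10.1 (31912 of 32678), and coordinates and sequences are of that build. The 133 chloroplast and 146 mitochondrial loci did not enter the library sizes, which were 29078107, 28933042 and 27236559 counts. Libraries with 3 counts at 0.103 to 0.110 CPM limit only the lowest genes; these floors cover counting error only.

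CPM, TPM-like levels, motifs and coding identity were computed in Python 3.11.15 with Biopython 1.88; coding sequences stood in for the planned protein comparison. Spread used edgeR 4.0.16 (R 4.3.3): TMM (factors 1.00, 1.02 and 0.978), filterByExpr (18334 genes), an intercept-only fit, and a chi-square test of the deviance with 2 degrees of freedom at the trended dispersion, adjusted by Benjamini-Hochberg. The test was tried on simulated counts with each gene's spread set at the trend. That cannot show how it behaves for genes that scatter around the trend. DESeq2 1.42.0 gave alternative size factors, and other alternatives changed filters, thresholds, length correction and libraries.

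Members and lists were chosen with earlier results of these data known. Names follow a rule: all members, any gene of the jasmonate list, the marker genes, and the 5 genes closest to each of 2 members. Of 80 listed genes, 6 (JOX1 to JOX4, JAZ13 and MYC5) were left out because the reference does not give them the listed name.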

Additional observations from a re-analysis of the deposited data

How the results depend on the processing

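Under the 3 other scalings the level of each of the 10 members moved by less than 1 SD between pools. Leaving out 1 of 3 libraries cannot move a mean by 1 SD, so those values show only a range, which was 208 to 355 CPM for LOX2, 194 to 336 CPM for MYC2 and 3.30 to 6.08 CPM for AOC1. The number of pathway genes expressed was 54 of 74 and ranged over 50 to 60 under 0.5 CPM, 5 CPM, 10 counts, 1 TPM-like and each left-out library. Genes varying among the pools numbered 462, and 459 with DESeq2 size factors, 568 with no filter, 308 at a mean of at least 10 CPM and 462 with a robust trend. Of the 462 genes, 459, 356, 297 and 462 were also called in these settings, in the same order. The set of called genes therefore changed with the filter. Leaving out 1 library gave 216 to 289 of all genes, 4 to 15 pathway genes and 0 to 4 members, the lowest values coming without pool 3; fewer libraries were then fitted. Members at an unadjusted p under 0.05 (edgeR goodness of fit) numbered 7 with all pools, and 4, 7 and 5 without pools 1, 2 and 3. The number over all genes at that p was not taken with a library left out. JAZ8 lost its call with no filter, and JAZ8 and ANAC055 were not tested at 10 CPM. With no length correction the log2 ratio to JAZ12 became -1.92 for JAZ1 and -2.71 for JAZ10; no other ratio moved by 1 SD under that setting or with a pseudocount of 1. With 1 library left out, LOX2 over the other lipoxygenases ranged from 0.16 to 1.29 and AOC1 over AOC3 from -3.41 to -1.75. Counts of members with a motif were the same in the 200 bases before the start. In that shorter window 7, 10 and 1 of the 64 other pathway genes held the G-box, T/G-box and GCC-box. Over all promoters the shares there were 5.74%, 6.36% and 1.44%. No paired analysis was possible because all samples belong to 1 group. Outliers could not be sought in a group of 3.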
